A study of Homo sapiens with 6 samples.

Results

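The enzymes that write and erase DNA methylation comprised 7 genes here: DNMT1, UHRF1, DNMT3A, DNMT3B, TET1, TET2 and TET3. They were found by matching the RefSeq accessions of a transcript count table to these symbols and summing the counts of each gene. All 7 were in the table, among 28452 genes, and all 7 were among the 17115 genes with enough counts to test.

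In mammalian cells a methyl group on cytosine, mostly in CG pairs, is copied onto the new strand after replication by DNMT1, which UHRF1 brings to the half-methylated sites. DNMT3A and DNMT3B methylate sites that carried no mark, and the TET enzymes oxidise methylcytosine with oxygen and 2-oxoglutarate, which leads to its loss by dilution or by base excision repair. CBX8 is a chromodomain subunit of Polycomb repressive complex 1, which binds histone H3 methylated at lysine 27.

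The cells were A549, an established human lung adenocarcinoma line. They had been infected with lentiviruses that express short hairpin RNAs and kept as stable lines. The groups were shCBX8-1 (2 libraries), shCBX8-2 (2 libraries) and control, with a control hairpin (2 libraries). All 3 groups had thus been through lentiviral infection, and no group is uninfected. What the first number in the shCBX8 names stands for is not in the labels, and neither is the origin of replicate libraries, which may be 1 culture or several. The p-values set differences between groups against the spread between these libraries, estimated over the 3 groups together. That spread may be technical, so the p-values may not extend to new cultures. The study's title names CBX8 as a promoter of lung adenocarcinoma growth that represses CDKN2C and SCEL, and the comparison asked here is how the methylation enzymes stood when CBX8 was lowered.

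Totals were 64197784 to 67169537 estimated counts per library. CBX8 itself had 7.79 and 7.70 CPM (counts scaled to a common library total with TMM factors) in shCBX8-1, 17.7 and 13.8 CPM in shCBX8-2, and 24.6 and 26.3 CPM in control. All 4 knockdown libraries lay below both controls, and the libraries of shCBX8-2 lay above those of shCBX8-1. The levels averaged 30.4% of control in shCBX8-1 and 61.9% in shCBX8-2, so the lowering was deeper in shCBX8-1. The median absolute log2 difference between the libraries of a group was 0.182 in shCBX8-2, 0.105 in shCBX8-1 and 0.105 in control. Of the markers of A549 and epithelium, KRT8 reached 11729 to 17126 CPM and EPCAM 3.05 to 8.39 CPM. Of those of leukocytes, fibroblasts and endothelium, CD14 stood at 2.42 to 4.65 CPM, CDH5 at 1.45 to 4.65 CPM and PECAM1 at 0.230 to 1.07 CPM. The others were below 1 CPM in every library, with CD3E and DCN at 0 counts.

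DNMT1 and UHRF1, the maintenance pair, were the members whose knockdown libraries all lay above control. Their promoters are shown because a search for the core E2F motif, the binding site of the factors that switch on replication genes at the start of S phase, found it in these and in none of the other members. The letters searched were TTTCCCGC, TTTCGCGC, TTTGGCGC and TTTGCCGC on both strands, in windows of 250 bases before to 50 after each RefSeq transcript start (GRCh38.p14). Each stretch below runs 5′ to 3′ on the gene's strand, with the motif, or its reverse complement, in capitals. In DNMT1 (chr19:10194948-10195053, minus strand) the match ran from base -2 to base 6 of the transcript start. In UHRF1 it lay at -14 to -7 of one start (chr19:4909401-4909500, plus strand) and at -160 to -153 of another (chr19:4909964-4910143, plus strand).
DNMT1: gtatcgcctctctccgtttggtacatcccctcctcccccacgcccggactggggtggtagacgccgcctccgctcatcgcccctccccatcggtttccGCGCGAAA
UHRF1, first start: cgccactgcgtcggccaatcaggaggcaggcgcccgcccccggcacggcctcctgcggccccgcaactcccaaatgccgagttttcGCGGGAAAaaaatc
UHRF1, second start: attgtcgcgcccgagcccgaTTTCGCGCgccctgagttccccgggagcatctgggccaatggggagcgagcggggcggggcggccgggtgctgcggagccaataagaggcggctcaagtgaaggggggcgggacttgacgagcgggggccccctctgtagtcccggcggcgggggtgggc

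The motif stood in at least 1 window of 2 of the 7 members, against 3.99% of the 27305 genes with a window, and of 14 of the 29 S phase replication genes with one. Genes differ in their number of starts. By window, it stood in 16.7% of 18 windows of members, 3.3% of 35116 windows of all genes and 38.9% of 36 windows of S phase genes. Another UHRF1 start, at base 4910367, had no match, and the motif was chosen with the results known. These are matches of letters, not binding sites that were measured, and their absence elsewhere says only that these letters are not in those windows.

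DNMT1 (GRCh38.p14, chr19:10133346-10194953, minus strand), which copies methylation at replication forks, had 143 and 142 CPM in shCBX8-1, 186 and 163 CPM in shCBX8-2, and 118 and 117 CPM in control. Every knockdown library was above both controls, the shCBX8-2 libraries stood above the shCBX8-1 libraries, and no groups overlapped. Averaged over both knockdown groups, DNMT1 rose 1.341-fold against control, a log2 fold change of 0.42 ± 0.07 (SE; edgeR quasi-likelihood test, adjusted p = 0.0238). In shCBX8-2 it rose 1.48-fold (log2 0.57 ± 0.08, edgeR adjusted p = 0.00883). In shCBX8-1 the log2 fold change was 0.28 ± 0.08, with edgeR adjusted p = 0.155. The difference between the knockdown groups, 0.29 ± 0.08 higher in shCBX8-2, did not pass (edgeR adjusted p = 0.0750). CBX8 was lower in shCBX8-1, while the mean of DNMT1 was higher in shCBX8-2. In bulk RNA, a change in the number of cells of a kind and a change in RNA per cell cannot be told apart.

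UHRF1 (chr19:4903080-4962154, plus strand), the reader of half-methylated DNA that recruits DNMT1, had 58.8 and 58.9 CPM in shCBX8-1, 58.8 and 58.4 CPM in shCBX8-2, and 47.3 and 48.2 CPM in control. The knockdown libraries spanned less than 1 CPM and all lay above control. The log2 fold change was 0.30 ± 0.07 for both groups together (edgeR adjusted p = 0.0511), 0.30 ± 0.08 in shCBX8-1 (edgeR adjusted p = 0.111) and 0.30 ± 0.08 in shCBX8-2 (edgeR adjusted p = 0.0542), so none passed the threshold of 0.05. The DESeq2 Wald test and a stricter filter on low counts (a mean of at least 1 CPM, edgeR adjusted p = 0.0442) placed the first of these past it.

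**Figure D1:**
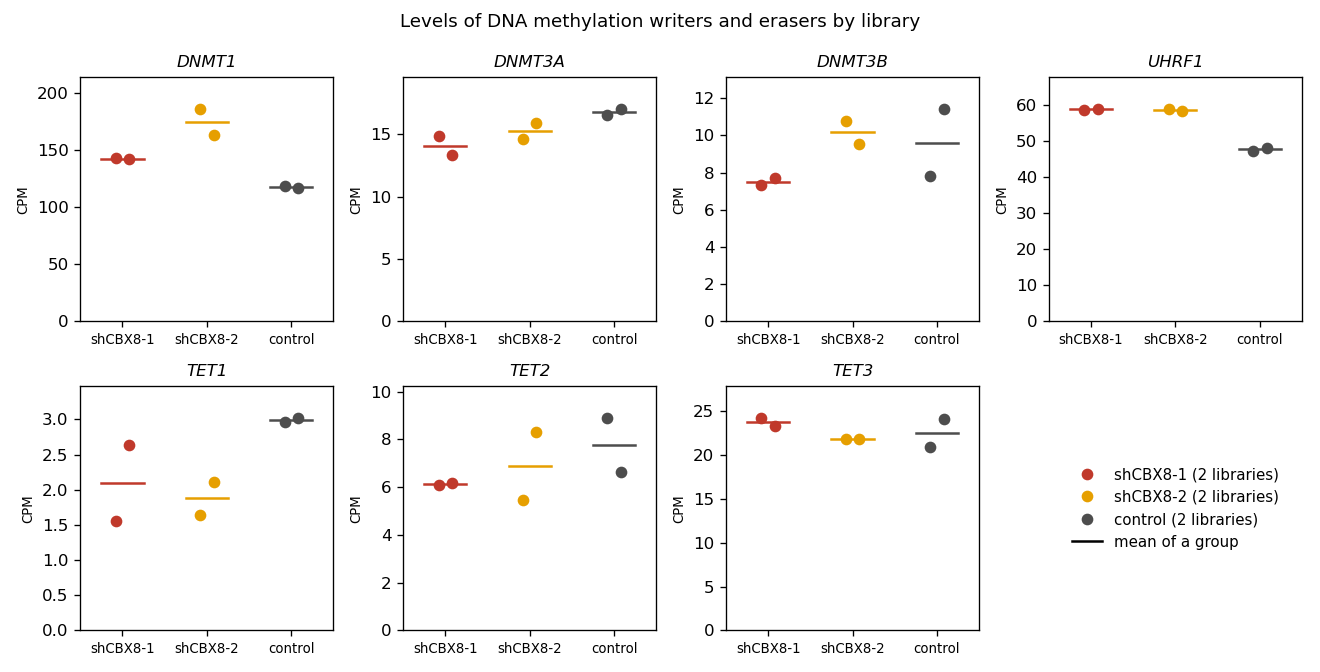
Levels in CPM (y axis, from 0, a scale of its own for each gene) of the 7 genes in the 2 libraries of shCBX8-1, shCBX8-2 and control (x axis); points are libraries and lines are group means. DNMT1 and UHRF1 are higher in all 4 knockdown libraries than in both controls, DNMT3A and TET1 are lower in all 4, and for DNMT3B, TET2 and TET3 the 4 knockdown libraries together overlap the controls.

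DNMT3A (chr2:25227874-25342590, minus strand), a de novo methyltransferase, had 14.8 and 13.3 CPM in shCBX8-1, 14.6 and 15.9 CPM in shCBX8-2, and 16.6 and 17.0 CPM in control. All 4 knockdown libraries were below both controls, but the nearest were less than 1 CPM apart. The log2 fold change of -0.20 ± 0.11 did not pass (edgeR adjusted p = 0.328). DNMT3B (chr20:32762385-32809356, plus strand), the other de novo methyltransferase, had 7.33 and 7.70 CPM in shCBX8-1, 10.8 and 9.55 CPM in shCBX8-2, and 7.81 and 11.4 CPM in control. Its control libraries differed more than the groups did. The log2 fold change was -0.36 ± 0.20 in shCBX8-1 and 0.08 ± 0.20 in shCBX8-2, with edgeR adjusted p = 0.440 and 0.832. The average over both groups was -0.14 ± 0.17 (edgeR adjusted p = 0.694), and it became 0.16 without control replicate 2.

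TET1 (chr10:68560337-68694487, plus strand) was the eraser with the lowest count: 101 and 174 counts, or 1.55 and 2.64 CPM, in shCBX8-1, 104 and 133 counts, or 1.64 and 2.11 CPM, in shCBX8-2, and 196 and 202 counts, or 2.96 and 3.02 CPM, in control. All 4 knockdown libraries lay below control, with a wide gap between the shCBX8-1 libraries. The fitted change, -0.59 ± 0.27 on the log2 scale, was the furthest from 0 of the 7 and had the largest SE (edgeR adjusted p = 0.246). TET1 did not pass in shCBX8-1 (-0.51 ± 0.32, edgeR adjusted p = 0.486) or in shCBX8-2 (-0.67 ± 0.32, edgeR adjusted p = 0.221). TET2 (chr4:105145875-105279803, plus strand), which unlike the other TET enzymes has no CXXC domain of its own, had 6.10 and 6.19 CPM in shCBX8-1, 5.45 and 8.31 CPM in shCBX8-2, and 8.90 and 6.63 CPM in control. TET3 (chr2:73983631-74135498, plus strand) had 24.2 and 23.3 CPM in shCBX8-1, 21.8 and 21.8 CPM in shCBX8-2, and 20.9 and 24.2 CPM in control. For both genes the 4 knockdown libraries overlapped the controls, although both shCBX8-1 values of TET2 were below control and both shCBX8-2 values of TET3 were below shCBX8-1. The log2 fold changes were -0.26 ± 0.21 for TET2 (edgeR adjusted p = 0.521) and 0.01 ± 0.10 for TET3 (edgeR adjusted p = 0.956).

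**Figure D2:**
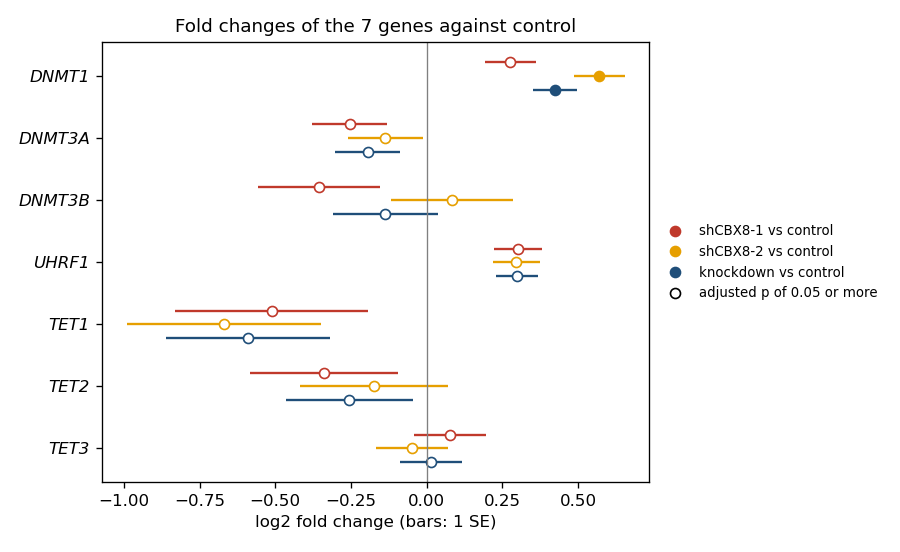
Log2 fold change against control (x axis) of each gene (y axis) in shCBX8-1, in shCBX8-2 and averaged over both; bars are 1 SE, and filled points have an edgeR adjusted p below 0.05. Filled points occur for DNMT1 alone, at 0.57 in shCBX8-2 and 0.42 for both groups, and TET1 has the widest bars.

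In counts, 1 of 7 members rose and 0 fell with knockdown, against 6.79% of all tested genes called in that comparison (3.31% higher and 3.48% lower). In shCBX8-2, 1 member rose and 0 fell, where 12.7% of genes were called (6.03% higher and 6.64% lower). In shCBX8-1, edgeR called 0 members, against 2.47% of genes. There, 2 members, DNMT1 and UHRF1, had an unadjusted p below 0.05, as had 17.2% of genes, and DESeq2 called 2 members and 1459 genes in all. Between shCBX8-2 and shCBX8-1, edgeR called 0 members, against 9.82% of genes. There, 1 member had an unadjusted p below 0.05, as had 26.4% of genes, and DESeq2 called 1 member and 2958 genes in all. All 4 knockdown libraries were above both controls for 2 members, as for 13.2% of genes, and below both for 2 members, as for 15.5%. The comparisons with control share the same 2 control libraries.

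The call of DNMT1 with knockdown was lost when a control library was left out (edgeR adjusted p = 0.161 without replicate 1 and 0.203 without replicate 2). It was also lost without shCBX8-1 replicate 1 (0.0897) or replicate 2 (0.0907), while its log2 fold change stayed between 0.38 and 0.47 over all 6 omissions. In shCBX8-2 the call was lost without control replicate 1 (0.0707) or control replicate 2 (0.0810). CBX8 also lost its knockdown call in each of the 4 omissions of a control or shCBX8-1 library, and only 1 gene in all was called without a control library. UHRF1 passed with knockdown without shCBX8-2 replicate 1 (0.00840) or replicate 2 (0.00645), when 3244 and 4467 genes in all were called.

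Set per kilobase of the longest matched transcript, the level of DNMT1 was 21.6 to 34.3 CPM per kb over the 6 libraries and that of UHRF1 10.98 to 13.7 CPM per kb, and these ranges lay apart from each other and from the rest. DNMT3B (1.69 to 2.63), TET3 (1.84 to 2.13) and DNMT3A (1.404 to 1.79 CPM per kb) followed. The range of DNMT3B overlapped those of both others, while TET3 lay above DNMT3A. TET2 stood at 0.563 to 0.919 and TET1 at 0.167 to 0.325 CPM per kb, each apart from the others. The order depends on the length used: by the length of its most abundant transcript, an alternative chosen after the data were seen, DNMT3A had 2.98 to 3.80 CPM per kb and lay above TET3 and DNMT3B.

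The estimated split among RefSeq transcripts varied between libraries of the same group. DNMT1 had 4 transcripts, of which NM_001379 held 25.6 to 41.1% of the gene's count. NM_001318731 held 27.9% in shCBX8-1 replicate 1 and was listed at 0 in the other 5 libraries. For UHRF1, NM_001048201 held 76.3 and 47.9% in shCBX8-1, 63.5 and 62.0% in shCBX8-2, and 71.0 and 84.2% in control. NM_001290051 held 8.06 and 41.0% in shCBX8-1, 25.6 and 31.6% in shCBX8-2, and 16.4 and 3.79% in control. The shCBX8-1 libraries lay furthest apart for both UHRF1 transcripts, and both shCBX8-2 values fell between theirs.

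Most of the DNMT3A count was on a non-coding transcript, NR_135490, with 68.8 to 97.0% per library. Its coding transcript NM_001375819 held 29.2% in shCBX8-2 replicate 1 and was listed at 0 elsewhere. The DNMT3B count moved between 4 coding transcripts. NM_175849 held 0 and 8.66% in shCBX8-1, 97.7 and 44.8% in shCBX8-2, and 0 and 46.3% in control. NM_001207055 held 90.8 and 61.6% in shCBX8-1, 0 and 7.65% in shCBX8-2, and 55.4 and 31.7% in control, and NM_175848 held 0 to 42.3%. NM_006892 held 9.21 and 0.394% in shCBX8-1, 2.34 and 5.32% in shCBX8-2, and 44.6 and 21.99% in control. Both control values of NM_006892 were above all 4 knockdown values, at 231 and 168 counts, against 44 and 2 counts in shCBX8-1 and 16 and 32 counts in shCBX8-2. In an edgeR fit of all 40859 transcripts with enough counts its log2 change was -3.03 ± 1.20 (adjusted p = 0.617), and no transcript of the 7 genes passed in any comparison.

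**Figure D3:**
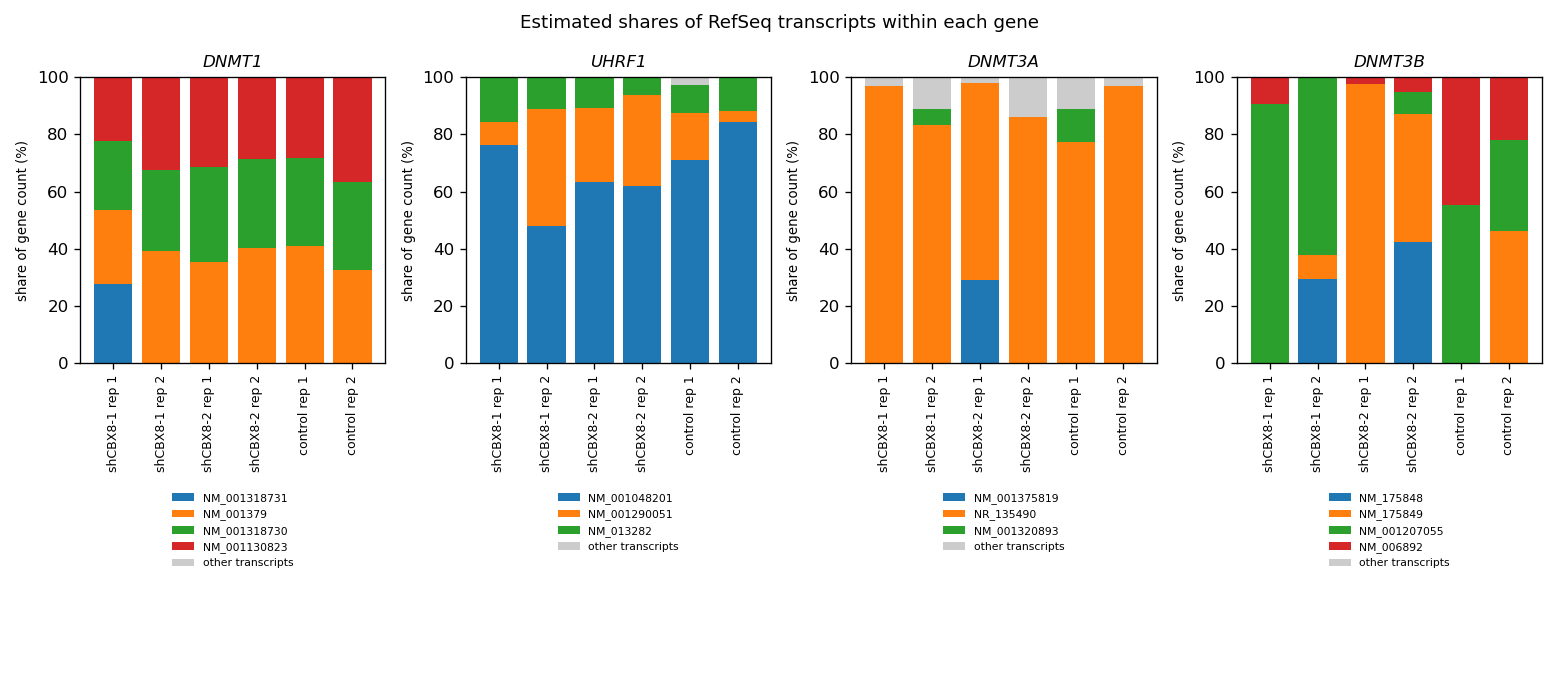
Share of each gene's estimated count (y axis, %) by RefSeq transcript in each library (x axis) for DNMT1, UHRF1, DNMT3A and DNMT3B; grey is the sum of transcripts under 10% in every library. Libraries of 1 group differ: NM_001318731 of DNMT1 holds 27.9% in shCBX8-1 replicate 1 and 0 in its partner, and NM_175849 of DNMT3B holds 0 and 46.3% in the controls.

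TET1 had 1 transcript. NM_001127208 held 90.7 to 98.6% of the TET2 count, and NM_001287491 held all of the TET3 count. The end of TET3 overlaps that of BOLA3, which had 2498 to 2993 counts in knockdown and 2486 to 2729 counts in control. Whether counting used strand is not stated, so reads from that overlap cannot be assigned with certainty.

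Among the partners of maintenance methylation, 2 of 9 genes rose with knockdown and 0 fell (median log2 fold change 0.16, against -0.04 for all tested genes). Over all tested genes, 3.31% rose and 3.48% fell in that comparison. LIG1, which seals Okazaki fragments and whose methylated lysine is bound by UHRF1, had 107 and 109 CPM in shCBX8-1, 137 and 120 CPM in shCBX8-2, and 80.9 and 83.3 CPM in control (log2 0.52 ± 0.08, edgeR adjusted p = 0.0157). PCNA, the replication clamp that DNMT1 binds, had 507 and 560 CPM in shCBX8-1, 709 and 684 CPM in shCBX8-2, and 490 and 497 CPM in control (log2 0.30 ± 0.06, edgeR adjusted p = 0.0359). For both genes all knockdown libraries were above control and shCBX8-2 was the higher group. Both passed in shCBX8-2, but in shCBX8-1 neither LIG1 (0.39 ± 0.09, edgeR adjusted p = 0.0733) nor PCNA did (0.11 ± 0.07, edgeR adjusted p = 0.492). PCLAF, a PCNA-binding protein that takes part in recruiting DNMT1, did not pass with knockdown (0.40 ± 0.10, edgeR adjusted p = 0.0673). By group, PCLAF rose in shCBX8-2 (0.56 ± 0.12, edgeR adjusted p = 0.0262) and did not pass in shCBX8-1 (0.24 ± 0.12, edgeR adjusted p = 0.357). USP7, the deubiquitinase that binds DNMT1 and UHRF1, did not pass with knockdown (0.14 ± 0.06, edgeR adjusted p = 0.229).

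Of 34 genes of S phase replication, 18 rose with knockdown and 0 fell (median log2 fold change 0.37, against -0.04 for all tested genes). Over all tested genes, 3.31% rose and 3.48% fell. In shCBX8-1, 1 rose, TK1 (median 0.20, against -0.01 for all), where 2.47% of all tested genes were called in either direction. There, 18 of the 34 had an unadjusted edgeR p below 0.05, 17 higher and 1 lower, as had 17.2% of all tested genes. DESeq2 called 8 of the 34 in shCBX8-1, all higher, and 1459 genes in all. In shCBX8-2, 26 rose (median 0.53, against -0.04 for all), as did 6.03% of all tested genes. Between shCBX8-2 and shCBX8-1, 10 were higher and 0 lower, where 9.82% of all tested genes were called in either direction. TK1, thymidine kinase, had 279 and 295 CPM in shCBX8-1, 348 and 297 CPM in shCBX8-2, and 194 and 194 CPM in control. RRM2, the small subunit of ribonucleotide reductase, had 108 and 107 CPM in shCBX8-1, 282 and 307 CPM in shCBX8-2, and 120 and 124 CPM in control. RRM2 was thus below control in shCBX8-1 (log2 -0.18 ± 0.07, edgeR adjusted p = 0.270) and rose in shCBX8-2 (log2 1.27 ± 0.08, edgeR adjusted p = 9.03e-04). FEN1, the flap endonuclease, and MCM7, a subunit of the replicative helicase, rose with knockdown by 0.55 and 0.45 on the log2 scale. Both passed in shCBX8-2 (edgeR adjusted p = 0.00299 and 0.00368) and not in shCBX8-1 (edgeR adjusted p = 0.0592 and 0.124).

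Per library, on a scale of log2(CPM + 1) minus that of the control mean, the median of the 34 genes was 0.18 and 0.23 in shCBX8-1, 0.56 and 0.47 in shCBX8-2, and -0.01 and 0.01 in control. DNMT1 stood at 0.28 and 0.27 in shCBX8-1, 0.66 and 0.47 in shCBX8-2, and 0.01 and -0.01 in control. DNMT1 lay in the same order of groups as these genes. UHRF1 stood at 0.29 and 0.30 in shCBX8-1 and at 0.30 and 0.28 in shCBX8-2, with no step between the knockdown groups. The part of cell cycle phase in the DNMT1 and UHRF1 levels was not tested.

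**Figure D4:**
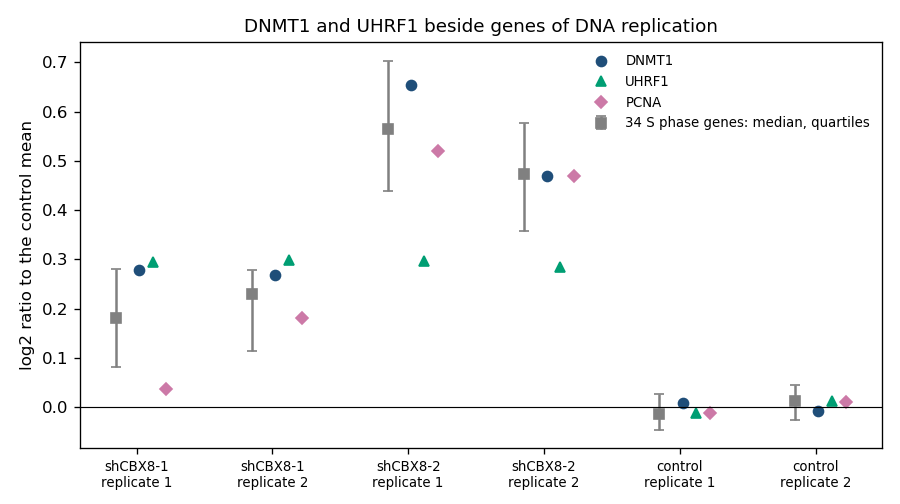
Log2 ratio to the control mean (y axis, from CPM + 1) in each library (x axis) for DNMT1, UHRF1 and PCNA and, in grey, the median and quartiles of 34 S phase genes. DNMT1 is near the S phase median in each shCBX8-2 library (0.66 and 0.47, against medians of 0.56 and 0.47), while UHRF1 stays at 0.28 to 0.30 in all 4 knockdown libraries.

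Among partners of de novo methylation and heterochromatin, 2 of 12 tested genes rose with knockdown and 0 fell (median 0.11). Over all tested genes, 3.31% rose and 3.48% fell. CBX1, heterochromatin protein 1 beta, had 167 and 170 CPM in shCBX8-1, 159 and 162 CPM in shCBX8-2, and 123 and 124 CPM in control. It rose with knockdown (log2 0.41 ± 0.06, edgeR adjusted p = 0.0141), in shCBX8-1 (edgeR adjusted p = 0.0273) and in shCBX8-2 (edgeR adjusted p = 0.0157). NSD2, which dimethylates histone H3 lysine 36, rose by 0.30 ± 0.06 (edgeR adjusted p = 0.0344). It passed in shCBX8-2 (0.45 ± 0.07, edgeR adjusted p = 0.0103) and not in shCBX8-1 (0.16 ± 0.07, edgeR adjusted p = 0.305). SUV39H1, a histone H3 lysine 9 methyltransferase, did not pass with knockdown (log2 0.35 ± 0.09, edgeR adjusted p = 0.0753). By group, SUV39H1 rose in shCBX8-2 (0.46 ± 0.11, edgeR adjusted p = 0.0344) and did not pass in shCBX8-1 (0.23 ± 0.11, edgeR adjusted p = 0.322). TRIM28, the corepressor of KRAB zinc finger proteins, did not pass with knockdown (0.25 ± 0.08, edgeR adjusted p = 0.112) or in either group. DNMT3L, the catalytically inactive partner of the de novo enzymes, had too few counts to test.

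Of 10 genes listed as readers of methylated DNA, edgeR called 0 with knockdown (median 0.02). The list follows the MBD and ZBTB families, and a place on it does not mean that the protein binds methylated DNA. Among the 10 genes 1, MBD3, had an unadjusted p below 0.05, as had 23.7% of all genes, and DESeq2 called 1. MBD3, a NuRD subunit, differed by 0.37 ± 0.10 with knockdown (edgeR adjusted p = 0.0695). By group, MBD3 rose in shCBX8-2 (0.50 ± 0.11, edgeR adjusted p = 0.0290) and did not pass in shCBX8-1 (0.24 ± 0.11, edgeR adjusted p = 0.330). MBD2, which binds methylated CG, differed by 0.16 ± 0.07 (edgeR adjusted p = 0.252). MBD5 and ZBTB33 differed by -0.51 ± 0.29 and -0.26 ± 0.30 (edgeR adjusted p = 0.340 and 0.665).

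Around the TET reaction, 0 of 13 tested regulators and 2-oxoglutarate enzymes rose with knockdown and 1 fell (median 0.01). Of all tested genes, 6.79% were called in either direction. IDH1, the cytosolic enzyme that makes 2-oxoglutarate from isocitrate, had 152 and 164 CPM in shCBX8-1, 142 and 165 CPM in shCBX8-2, and 252 and 258 CPM in control. All 4 knockdown libraries lay well below both controls. IDH1 fell by 0.71 with knockdown, by 0.69 in shCBX8-1 and by 0.74 in shCBX8-2 on the log2 scale, and passed in all 3 comparisons (edgeR adjusted p = 0.00802 for the first). The value for its most abundant transcript alone was -0.15 (edgeR adjusted p = 0.891). CXXC4, which binds TET2 and promotes its degradation, had 59 and 112 counts in shCBX8-1, 22 and 52 counts in shCBX8-2, and 132 and 172 counts in control, and its change did not pass (log2 -1.38 ± 0.42, edgeR adjusted p = 0.103). CXXC5 (edgeR adjusted p = 0.111) and OGDH (0.145), a subunit of the 2-oxoglutarate dehydrogenase complex, did not pass with knockdown either. OGDH had 99.1 and 99.8 CPM in shCBX8-1, 157 and 141 CPM in shCBX8-2, and 98.4 and 110 CPM in control, and it rose in shCBX8-2 (log2 0.52 ± 0.09, edgeR adjusted p = 0.0154).

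Of 13 tested genes of excision repair after oxidation or deamination, 1 rose with knockdown and 1 fell (median -0.09), against 6.79% of all tested genes called. NEIL3, a DNA glycosylase for oxidised bases, rose by 0.42 ± 0.08 (edgeR adjusted p = 0.0306). It passed in shCBX8-2 (0.39 ± 0.09, edgeR adjusted p = 0.0391) and not in shCBX8-1 (0.46 ± 0.09, edgeR adjusted p = 0.0592). GADD45A, a stress-induced protein linked to active demethylation, had 57.7 and 54.2 CPM in shCBX8-1, 34.3 and 36.2 CPM in shCBX8-2, and 59.0 and 58.6 CPM in control. Averaged over both knockdown groups it fell (log2 -0.41 ± 0.07, edgeR adjusted p = 0.0259), and the shCBX8-2 libraries stood apart from the other 4. By group, GADD45A fell in shCBX8-2 (-0.74 ± 0.09, edgeR adjusted p = 0.00464) and did not pass in shCBX8-1 (-0.07 ± 0.09, edgeR adjusted p = 0.755). PARP1 and XRCC1, which act on DNA strand breaks, differed by 0.17 ± 0.06 and 0.22 ± 0.09 and did not pass (edgeR adjusted p = 0.125 and 0.190).

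Of 13 tested genes of methyl donor supply, 1 rose with knockdown and 0 fell (median -0.09), against 6.79% of all tested genes called. MTHFD1, a folate enzyme, rose by 0.29 ± 0.07 (edgeR adjusted p = 0.0480). It passed in shCBX8-2 (0.35 ± 0.08, edgeR adjusted p = 0.0289) and not in shCBX8-1 (0.24 ± 0.08, edgeR adjusted p = 0.171). MAT2A, which makes S-adenosylmethionine, the methyl donor of all DNMTs, had 334 and 340 CPM in shCBX8-1, 373 and 365 CPM in shCBX8-2, and 300.03 and 301 CPM in control. Its groups did not overlap, but the change with knockdown did not pass (0.23 ± 0.05, edgeR adjusted p = 0.0518), while it rose in shCBX8-2 (0.30 ± 0.06, edgeR adjusted p = 0.0253). MAT1A, the liver form of that enzyme, had 3 and 0 counts in shCBX8-1, 0 and 0 counts in shCBX8-2, and 19 and 36 counts in control. SHMT1 did not pass with knockdown (edgeR adjusted p = 0.101). By group, SHMT1 rose in shCBX8-2 (log2 0.48 ± 0.10, edgeR adjusted p = 0.0264) and did not pass in shCBX8-1 (0.10 ± 0.10, edgeR adjusted p = 0.679).

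Germline genes whose promoters are methylated in somatic cells are a common readout of lost methylation. Of 26 listed, 18 were too low to test, and 12 of these had 0 counts in all 6 libraries, where 3 counts in a library would be 0.0447 to 0.0467 CPM. The other 6 reached at most 11 counts in a library. Of the 8 tested, edgeR called 0 with knockdown. The count with an unadjusted p below 0.05 was 2, both lower, where 23.7% of all genes had such a p, and DESeq2 called 0. In shCBX8-2 edgeR called 0, with 2 at an unadjusted p below 0.05, as had 29.2% of all genes. DESeq2 called 2 there, both lower. HORMAD1, a protein of the meiotic chromosome axis, had 668 and 690 counts in shCBX8-1, 367 and 645 counts in shCBX8-2, and 906 and 959 counts in control, so that every knockdown library was below control (log2 -0.62 ± 0.21, edgeR adjusted p = 0.138). MAGEA1 had 26 and 4 counts in shCBX8-1, 0 and 4 counts in shCBX8-2, and 50 and 36 counts in control. XAGE1B had 206 and 215 counts in shCBX8-1, 206 and 79 counts in shCBX8-2, and 355 and 159 counts in control. MAGEC1 had 0 and 0 counts in shCBX8-1, 23 and 0 counts in shCBX8-2, and 12 and 7 counts in control. The MAGE and XAGE families have near-identical copies, so counts of single members are uncertain.

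The genes whose levels followed each member most closely were found by Pearson's r of log2(CPM + 1) over the 6 libraries, among 13662 genes. With 6 points in 3 groups, high values are frequent and are given as a description. For DNMT1 these were KIF22 (r = 0.998), TOP6BL and S100A16, and for UHRF1 KIF20A (r = 0.999), SUSD2 and MESD. For DNMT3A they were RNF214 (r = 0.993), LOC100128653 and ANKEF1, and for DNMT3B ZNF837 (r = 0.993), STEAP1 and NFIC. For TET1 they were ATG4A (r = 0.976), ALG2 and VPS41, for TET2 DDX60L (r = 0.985), CDKN2AIP and BECN1, and for TET3 NUTM2E (r = 0.984), XKR8 and SCN8A.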

How the data were processed

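The deposited table holds estimated counts per RefSeq transcript of 6 libraries, whole numbers that are not scaled to a common total. The submitters' processing notes name HISAT2 2.2.1, StringTie 2.2.1, DESeq2 1.34.0 and the build hg38, without roles or order. Not given in the sources used here are the annotation, the counting step and its use of strand. Splits between transcripts of a gene are estimates, and sums per gene depend on them less.

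Of 84787 transcripts, 83963 were matched to genes by RefSeq (GRCh38.p14) and 357 by GENCODE v29, and 467 stayed as entries of their own. Counts were summed to 28452 genes. Entries whose accession carries a copy suffix, 12094 in number, held 2.89 to 3.17% of a library's counts. In R 4.3.3, edgeR 4.0.16 fitted a quasi-likelihood model of 3 groups to all 6 libraries, with TMM scaling (trimmed mean of M values), filterByExpr (minimum count 10, minimum total 15; 17115 genes) and 3 residual degrees of freedom. The biological coefficient of variation was 19.2%. "Knockdown" is the mean of both shCBX8 groups minus control. P-values are two-sided, with Benjamini-Hochberg adjustment across the 17115 tested genes; a call needs an adjusted p below 0.05 at any fold. SEs come from the F statistic. The steps were tested on simulated data.

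Alternatives were DESeq2 1.42.0, DESeq2 size factors, no filter or a mean of at least 1 CPM, each library left out, replicate number as a block, removal of an abundance trend, only the libraries compared, the 4 knockdown libraries as 1 group, no repeated accessions, and single transcripts. The members and gene lists were chosen with earlier results of these data known. Named genes are the 7 members, CBX8, the 3 genes closest to each member, and up to 4 tested genes per list with the smallest p with knockdown. Transcripts are named if they held at least 10% of a gene's count in a group. Further names are the markers and, in the plot of transcript shares, NM_001320893. Promoter windows are from RefSeq GRCh38.p14, and the E2F motif was chosen with the results known. Gene lengths are those of the longest matched GENCODE v29 transcript.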

Additional observations from a re-analysis of the deposited data

Results flagged for a closer look

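Results are listed here because the fold change against control differed between the knockdown groups, by the direct comparison of shCBX8-2 with shCBX8-1 (edgeR, adjusted p below 0.05, where 9.82% of all genes tested passed). None of the 7 methylation enzymes is among them.

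CBX8 was 1.02 higher in shCBX8-2 on the log2 scale. Of the genes around the methylation enzymes that rose with knockdown, RRM2 was 1.45, MCM7 0.41, FEN1 0.40, PCNA 0.38 and NSD2 0.29 higher in shCBX8-2 than in shCBX8-1 on the log2 scale. GADD45A, which fell in the average over both groups, was lower in shCBX8-2 than in shCBX8-1, at -0.67 on the log2 scale. Against control it did not pass in shCBX8-1. OGDH, which did not pass with knockdown, was 0.58 higher in shCBX8-2. RRM2 and OGDH had fitted changes of opposite sign against control. RRM2 stood at -0.18 in shCBX8-1 and 1.27 in shCBX8-2, and OGDH at -0.07 in shCBX8-1 and 0.52 in shCBX8-2, and neither shCBX8-1 value passed.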

How the results depend on the processing

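Over the alternatives, 370 of 420 member values (7 genes, 4 comparisons) kept their direction and their side of the threshold; 9 lost a call, 21 gained one and 20 changed sign. Of the 1032 values of other named genes, 770 were kept, 197 lost a call, 60 gained one and 5 changed sign. The causes were not tested. With 1 library left in a group, that library is assumed to vary like the other groups.

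The count of members called with knockdown, 1 as reported, was 2 with a mean of at least 1 CPM, with no repeated accessions, with DESeq2 size factors and with the DESeq2 Wald test. It was 0 with the 4 knockdown libraries as 1 group. In shCBX8-1, 0 became 2 with the DESeq2 Wald test and with only the libraries compared. In shCBX8-2, 1 became 2 with a mean of at least 1 CPM, with DESeq2 size factors and with the DESeq2 Wald test. For shCBX8-2 against shCBX8-1, 0 became 1 with the DESeq2 Wald test. Leaving out 1 library gave 0 to 2 members with knockdown, in shCBX8-1 and in shCBX8-2, and 0 to 1 between the knockdown groups.

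Over all genes, the DESeq2 Wald test called 2441 with knockdown, 1459 in shCBX8-1, 3560 in shCBX8-2 and 2958 between the knockdown groups, where edgeR called 1162, 423, 2169 and 1681. Only the libraries compared gave 2426 in shCBX8-1, 995 in shCBX8-2 and 638 between the knockdown groups, and the 4 knockdown libraries as 1 group gave 27. Leaving out 1 library gave 1 to 4467 with knockdown, 0 to 2327 in shCBX8-1, 139 to 5515 in shCBX8-2 and 126 to 5104 between the knockdown groups.

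Libraries with the same replicate number did not deviate together over genes (r of 0.06, 0.02 and -0.02 for the 3 pairs of groups), so the numbers were not shown to pair them. With the number as a replicate block, 696 genes were called with knockdown, 173 in shCBX8-1 and 1082 between the knockdown groups; the block moved no member across the threshold, and DNMT1 with knockdown had edgeR adjusted p = 0.0421.

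Signs changed as follows, on the log2 scale. With single transcripts, UHRF1 was at -0.023 with knockdown, -0.027 in shCBX8-1, -0.020 in shCBX8-2 and 0.0071 between the knockdown groups, DNMT3A at -0.10 between them, and OGDH and SHMT1 at -0.14 and -0.12 with knockdown. With the abundance trend removed, TET2 in shCBX8-2 was at 0.013 and TET1 between the knockdown groups at 0.0074; by DESeq2 size factors and by its Wald test UHRF1 was at 0.0023 there. Leaving out 1 library spanned -0.38 to 0.16 for DNMT3B, -0.085 to 0.12 for TET3, -0.64 to 0.0012 for ZBTB33 and -0.998 to 0.17 for XAGE1B with knockdown. It spanned -0.010 to 0.20 for TET3 and -0.13 to 0.029 for OGDH in shCBX8-1, and -0.18 to 0.37 for DNMT3B, -0.51 to 0.11 for TET2 and -0.16 to 0.047 for TET3 in shCBX8-2. Between the knockdown groups it spanned -0.034 to 0.00027 for UHRF1, -0.51 to 0.25 for TET1 and -0.17 to 0.45 for TET2.

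TET1, at 101 to 202 counts per library, has the least precise fold change of the 7. Scaling alternatives moved the median of all genes by less than 0.1 on the log2 scale.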
